A study of Mus musculus with 36 samples.

Results

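The replication-dependent histone genes were followed through their open chromatin. The 49 peaks described here are the ATAC-seq peaks whose midpoint lay closer to the transcription start site (TSS) of one of these genes than to that of any other protein-coding gene, out of 71509 peaks in the whole series. The genes were the 73 protein-coding genes of the mouse annotation (GRCm39, GENCODE) whose symbol begins with H1f, H2ac, H2bc, H3c or H4c followed by a number. Of the 49 peaks, 42 lay on chromosome 13, 5 on chromosome 6 and 2 on chromosome 11, and 23 covered the TSS of at least 1 of the genes while 26 did not. A member peak that covers no TSS is named below by its distance from the nearest histone gene, which says nothing of the gene it may act on. The symbols do not separate the genes by regulation: H1f0 and H1f10 belong to the replication-independent linker histones, and H1f6, H1f7, H1f8 and H1f9 are linker histones of germ cells.

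Histones are the spools of the nucleosome: pairs of H2A, H2B, H3 and H4 form the core, and H1 binds the linker DNA where it enters and leaves. Most copies are made in S phase, when new DNA has to be packaged, from short intronless genes gathered in clusters, and their messages end in a stem-loop bound by SLBP rather than in a poly(A) tail. The factor NPAT gathers at the clusters in the histone locus body. T cells are small resting cells until they meet antigen, and then divide fast, so the same clusters pass from little use to heavy use.

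ATAC-seq measures how readily a transposase enters the DNA, and was done on mouse CD4 T cells from 2 lines in which a heterochromatin protein had been deleted, in 12 groups of 3 libraries. HP1α (gene Cbx5) was removed in all cells through a floxed Hp1a allele and CMV-cre, with Hp1a+/- parents giving KO and WT littermates, while HP1γ (gene Cbx3) was removed in T cells by Cd4-cre from floxed Hp1g, and its WT littermates carried the floxed allele without Cre. In each line the cells were naive CD4 T cells, allospecific conventional T cells (Tconv, TCR Vβ6+) sorted from the spleen 3 weeks after transfer into lethally irradiated B6 mice grafted with equal amounts of B6 and B6D2F1 bone marrow, or Tconv from hosts that also received ex vivo expanded WT regulatory T cells (Treg). The donors were sex-matched littermates of 6 to 12 weeks on a mixed 129/Sv and C57BL/6 background. The questions were what each deletion does to the chromatin of these cells, alone and under Treg. The HP1α and HP1γ lines have their own WT and were fitted apart.

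The libraries held 1.49 to 96.8 M reads in peaks, and the 49 members took 0.0979 to 0.179% of them. Depth was uneven in the HP1α line, where the Tconv with Treg libraries held 1.49 to 50.7 M and the Tconv libraries 6.20 to 78.3 M. The study left out 3 of these, replicate 3 of the WT and replicates 2 and 3 of the KO, whose shares of reads near a TSS (58.27 to 60.16%) were the lowest of all 36 libraries. They were left out of the tests here as well, so that this KO group rests on 1 library, for which the spread of the other groups was assumed, and the main results that touch the groups with Treg of this line are given with and without them. The labels number the libraries of a group 1 to 3 but do not tie them to separate hosts, so the p values measure the spread between these libraries, part of which may be technical. All 8 genes listed for CD4 T cells had a peak over their TSS. That of Cd4 was called higher in the HP1γ KO, which carries Cd4-cre, than in its WT without Cre (2.77, 2.55 and 2.6 on the log2 scale for naive, Tconv and Tconv with Treg), the part of the transgene in this was not tested, and the others were called in no comparison of KO with WT. Of the genes listed for other cell types, Cd79a, Ms4a1, Cd22, Csf1r, Lyz2, Cd8a, Ncr1, Klrb1c and Klf1 had none, and Pax5, Spi1, Itgam, Cd14, Cd8b1, Eomes, Hbb-bs and Gata1 had one. Of these, the peak shared by the Cd8b1 and Smyd1 starts was lower in Tconv than in naive cells (-2.91, -2.71, -3.26 and -2.64 on the log2 scale in HP1α WT, HP1α KO, HP1γ WT and HP1γ KO) and the Pax5 start higher (1.0, 1.06, 0.81 and 1.17). Of the erythroid genes, Gata1 was called lower in all 4 (-1.48, -1.72, -1.91 and -1.85) and Hbb-bs higher in both WT comparisons (2.91 and 3.5), and the peak at Itgam, shared with Gm49368, was called lower in the HP1α line (-1.33 and -1.16). With Treg against Tconv, Pax5 and Eomes were called higher in HP1α WT (1.41 and 1.35) and Itgam lower in HP1γ KO (-1.3). The part of other cells in the comparisons was not tested. The peaks over the TSS of Cbx5 and Cbx3 did not pass the test between KO and WT (log2 fold changes -0.11 to 0.13), which is no check of the deletions, since accessibility of a promoter does not report the protein.

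Accessible chromatin was spread unevenly over the histone genes. Of the 73 genes, 38 had their TSS inside a member peak, 3 inside a peak assigned to another gene (H1f0, H2ac25 and H2bc26), 6 were only the nearest gene of a peak, and 26 had no peak by either measure. This goes by annotated starts. H2bc6 counts among the 26, yet the peak 4127 bp downstream of H4c4 (5.65 log2 CPM) lies on an exon of H2bc6. H1f3 counts as nearest only, yet the peak 2377 bp downstream of its start (5.42) lies on its exon. Both peaks are grouped with the members that cover no TSS. H3 and H4 genes were covered most often, with 8 of 12 H3 genes and 10 of 13 H4 genes in a member peak, against 8 of 18 H2A, 10 of 19 H2B and 2 of 11 H1 genes. On chromosome 13 the 42 peaks formed a proximal block of 342 kb with 23 genes and 14 member peaks, and a distal block of 248 kb with 29 genes and 28 member peaks. The 1460 kb between them held no member but 26 other peaks.

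Most of the genes without a peak lay in the 2 intervals given here, while H1f4, H2bc6, H2bc1, H2ac1 and H1f7 lay elsewhere. On chromosome 13 the interval chr13:21935261-22036483, 101 kb long, held the starts of 12 histone genes and not 1 peak, and on chromosome 3 the interval chr3:96103071-96207890, 105 kb long, held all 10 histone genes of that cluster and no peak. In the chromosome 13 interval 45.3% of all 100-base stretches occur at more than 1 place in GRCm39, and in the chromosome 3 interval 12.7% do. The authors kept reads with a mapping quality of at least 30, which removes reads that match several places equally well, and its part in the lack of peaks was not tested. The same measure touched the peaks that were found: 21 of the 23 peaks over a histone TSS held such repeated stretches (median 10.1% of the peak, highest 31.9% at H2ac12/H2bc12), against 2 of the 26 other members and 8 of 34 peaks over the TSS of S phase genes. How far the repeats lower the counts of these peaks was not tested.

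**Figure D1:**
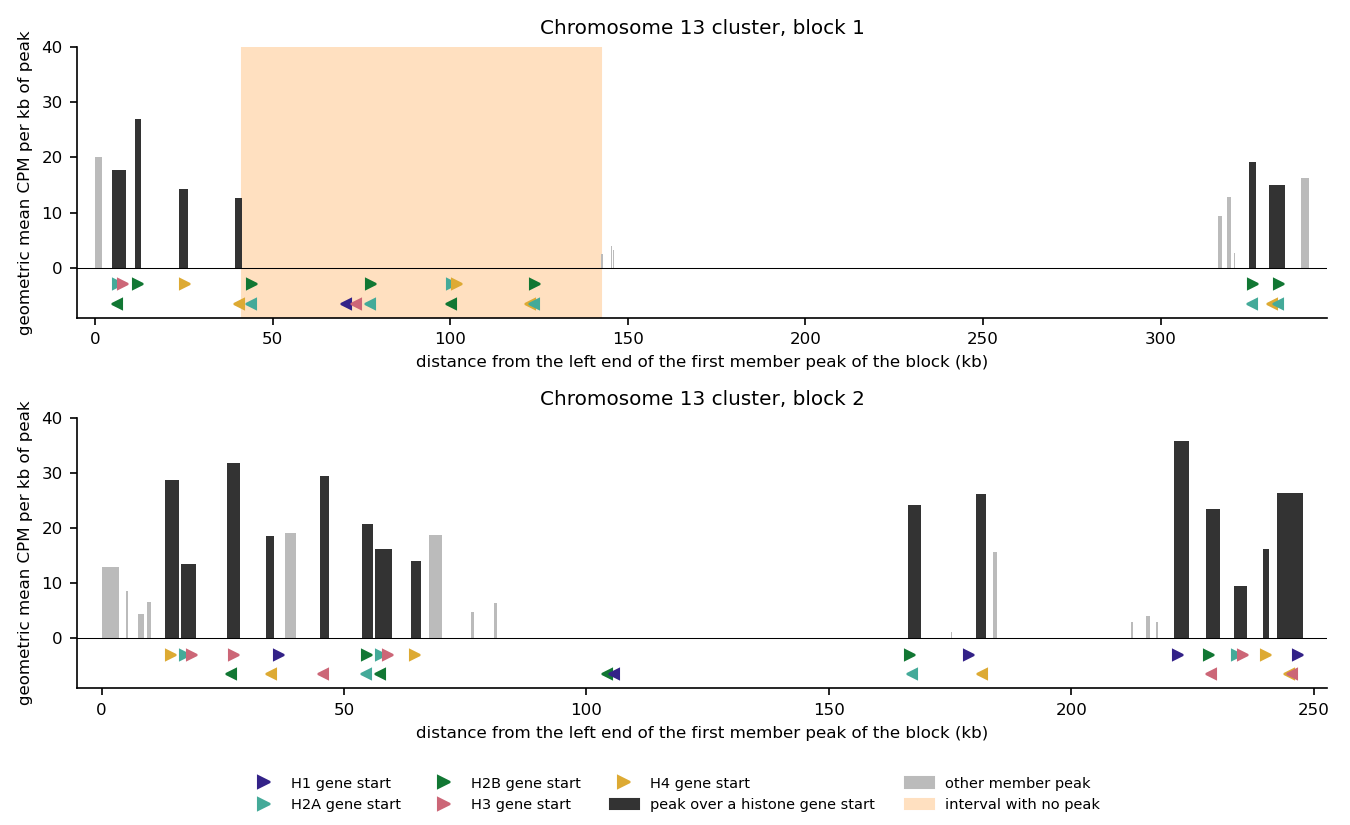
Member peaks along the proximal and distal blocks on chromosome 13, against the distance in kb from the left end of the block; bar height is the geometric mean CPM per kb of peak over 36 libraries, bar width the peak, and triangles the gene starts pointing in the direction of transcription. The tall bars stand on gene starts, and the shaded interval of 101 kb holds 12 gene starts and no peak.

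The H2A and H2B genes mostly stand as head-to-head pairs that share the DNA between their starts. This DNA is shown for a pair whose peak fell in the HP1α WT Tconv and a pair whose peak rose in the HP1γ Tconv (values follow). In capitals stand the CCAAT box, the TATA box written as TATAAA, and the octamer written as ATTTGCAT, on either strand.
H2ac8-H2bc8 (chr13:23755395-23755569, plus strand): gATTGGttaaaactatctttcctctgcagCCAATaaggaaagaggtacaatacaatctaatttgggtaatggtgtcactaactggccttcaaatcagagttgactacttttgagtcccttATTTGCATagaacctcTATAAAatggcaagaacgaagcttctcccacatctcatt
H2bc7-H2ac7 (chr13:23758371-23758554, plus strand): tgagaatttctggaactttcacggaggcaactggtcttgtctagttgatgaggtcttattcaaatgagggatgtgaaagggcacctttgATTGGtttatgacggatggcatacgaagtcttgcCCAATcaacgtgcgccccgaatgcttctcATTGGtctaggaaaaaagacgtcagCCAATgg
The first holds the CCAAT box at 2 places and the TATA box and the octamer once each, and the second holds the CCAAT box at 4 places and neither of the others. Over the window from 250 bases before to 50 after the start, read on both strands, CCAAT stood in 79.5% of the 73 histone genes against 39.9% of 21751 coding genes, TATAAA in 49.3 against 13.2%, ATTTGCAT in 20.5 against 1.63%, and TTTCGCGC, a form of the E2F site, in 12.3 against 0.354%. The families differed. CCAAT was found in 18 of 18 H2A, 18 of 19 H2B and 11 of 12 H3 genes but in 4 of 13 H4 genes, and ATTTGCAT in 7 H2A and 8 H2B genes and in no H1, H3 or H4 gene. TTTGGCGC, another form of the E2F site, was in none of the 73, against 0.676% of coding genes.

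The 150 bases before the start are shown for 4 more genes, with the same letters in capitals: H1f2, whose peak was the most open per kb, H4c3, an H4 gene with the CCAAT box at 2 places, and H4c17 and H4c18, which both lie in the interval with no peak.
H1f2 (chr13:23922641-23922790, plus strand): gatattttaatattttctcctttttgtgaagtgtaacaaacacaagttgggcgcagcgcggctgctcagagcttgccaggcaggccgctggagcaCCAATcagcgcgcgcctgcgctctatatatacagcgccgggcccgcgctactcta
H4c3 (chr13:23882438-23882587, minus strand): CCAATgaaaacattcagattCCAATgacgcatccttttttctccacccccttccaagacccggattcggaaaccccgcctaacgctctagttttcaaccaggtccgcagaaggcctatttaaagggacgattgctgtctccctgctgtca
H4c17 (chr13:21995766-21995915, plus strand): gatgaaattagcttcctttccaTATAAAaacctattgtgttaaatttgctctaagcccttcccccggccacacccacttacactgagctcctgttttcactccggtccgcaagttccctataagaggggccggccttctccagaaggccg
H4c18 (chr13:22016367-22016516, minus strand): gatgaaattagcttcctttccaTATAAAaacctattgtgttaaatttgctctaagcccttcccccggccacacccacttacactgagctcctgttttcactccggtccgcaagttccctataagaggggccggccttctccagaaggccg
H4c17 and H4c18 differed at 0 of the 150 bases, so a read from one start matches the other as well.

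The central 300 bases, or the whole peak where shorter, are shown for the 5 members away from a start that were called in at least 1 comparison, a choice from 9 such members made after their values were seen. The capitals mark CTTTGAT (bound by TCF factors), TGTGGTT (RUNX), CAGGAAG (ETS) and TGANTCA (AP-1), on either strand, names that stand for families known from T cells and not for binding measured here.
H1f2, 9406 bp upstream (chr13:23913235-23913534, plus strand): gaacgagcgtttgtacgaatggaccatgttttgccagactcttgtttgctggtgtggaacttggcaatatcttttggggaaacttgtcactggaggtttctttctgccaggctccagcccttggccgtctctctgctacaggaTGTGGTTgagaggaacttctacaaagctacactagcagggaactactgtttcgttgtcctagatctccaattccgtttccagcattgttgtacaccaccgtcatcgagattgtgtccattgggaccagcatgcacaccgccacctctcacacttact
H1f2, 4221 bp upstream (chr13:23918420-23918719, plus strand): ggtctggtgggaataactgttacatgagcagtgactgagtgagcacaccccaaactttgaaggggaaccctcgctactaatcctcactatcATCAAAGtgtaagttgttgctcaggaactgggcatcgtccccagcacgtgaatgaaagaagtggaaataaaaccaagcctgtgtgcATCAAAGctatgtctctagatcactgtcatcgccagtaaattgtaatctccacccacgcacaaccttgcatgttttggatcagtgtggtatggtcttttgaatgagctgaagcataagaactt
H2bc24, 18859 bp downstream (chr13:22036637-22036936, plus strand): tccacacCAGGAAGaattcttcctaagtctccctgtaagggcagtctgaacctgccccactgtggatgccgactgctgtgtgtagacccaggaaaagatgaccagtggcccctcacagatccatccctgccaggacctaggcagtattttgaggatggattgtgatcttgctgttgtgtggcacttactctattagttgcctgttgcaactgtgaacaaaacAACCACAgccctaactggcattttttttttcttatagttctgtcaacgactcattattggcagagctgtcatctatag
H4c4, 11762 bp downstream (chr13:23777193-23777492, plus strand): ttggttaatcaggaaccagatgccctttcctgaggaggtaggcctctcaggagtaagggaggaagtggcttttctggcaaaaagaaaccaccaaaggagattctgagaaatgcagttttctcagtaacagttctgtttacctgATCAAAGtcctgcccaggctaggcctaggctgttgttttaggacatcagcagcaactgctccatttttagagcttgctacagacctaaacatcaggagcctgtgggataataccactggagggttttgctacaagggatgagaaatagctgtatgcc
H1f6, 3699 bp upstream (chr13:23875961-23876236, plus strand): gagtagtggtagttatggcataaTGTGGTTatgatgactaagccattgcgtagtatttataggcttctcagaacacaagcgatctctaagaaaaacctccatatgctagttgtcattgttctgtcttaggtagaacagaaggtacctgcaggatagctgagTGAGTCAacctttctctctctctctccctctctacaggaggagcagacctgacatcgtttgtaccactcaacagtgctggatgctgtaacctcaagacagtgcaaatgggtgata
The peak 4221 bp upstream of H1f2 held CTTTGAT at 2 places, and the one 9406 bp upstream held TGTGGTT once. Each set of letters was as frequent among the 26 members without a TSS as among all peaks, or rarer, apart from that of TCF. The AP-1 letters stood in 3 of 26 against 13% of all peaks, those of RUNX in 3 of 26 against 12.9%, those of ETS in 2 of 26 against 21.0%, and those of TCF in 3 of 26 against 5.77%.

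The gene starts that lay in a member peak were open in every cell state, which says nothing of the starts with no peak. The 23 TSS peaks had a median width of 2400 bp, a GC content of 47.1% and a median level of 4.37 log2 CPM per kb of peak, where CPM sets the reads of a peak against all reads in peaks of that library after TMM scaling and the median over all 13652 peaks on coding TSSs was 4.05 log2 CPM per kb. Linker histone H1f2 had the highest level per kb (5.16 log2 CPM per kb) and the core histone pair H2ac4/H3c2 the lowest (3.24). Grouped by role, peaks on H1 starts had a median of 4.94 log2 CPM per kb, those on H2A 4.08, H2B 4.43, H3 4.35 and H4 4.11. Of the 23 peaks, 12 held more than 10% repeated sequence, and its part in this order was not tested. Gene use was not measured here.

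By level per peak, not corrected for length, the highest of chromosome 13 were the peak over H1f1, H3c1 and H4c1 (mean 7.13 log2 CPM, 5310 bp wide), H1f2 (6.77) and H2bc9/H3c7 (6.38), and the lowest H4c2 (4.48), H2ac4/H3c2 (4.56) and H4c12 (4.60). Away from chromosome 13, H2bc27 on chromosome 11 had 5.42 and H4c16 on chromosome 6 had 5.86 log2 CPM. Between the lowest and the highest of the 12 group means a TSS peak moved by a median of 0.94 on the log2 scale (0.69 to 1.24), close to the 0.92 of all coding TSS peaks. The 26 other members were narrower (822 bp), less open (2.18 log2 CPM per kb) and more variable, with a median range of 1.71 (0.62 to 4.89) against 2.30 for all peaks over no coding TSS. In a mixed sample, fewer open cells and less opening in each cell cannot be told apart.

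The summed level of the 23 TSS peaks shows the pattern of the libraries. In the HP1γ line it stayed between 1160 and 1460 CPM in all 18 libraries: 1410, 1420 and 1450 in WT naive cells, 1330, 1430 and 1450 in WT Tconv, and 1160, 1250 and 1290 in WT Tconv with Treg. The KO of that line gave 1300, 1360 and 1420 in naive cells, 1350, 1440 and 1460 in Tconv, and 1380, 1440 and 1440 in Tconv with Treg. With Treg the KO libraries thus stood above the WT libraries without overlap, while in naive cells and in Tconv alone the genotypes overlapped. In the HP1α line the WT naive libraries gave 1480, 1520 and 1630 and the WT Tconv libraries 777, 977 and 1300 CPM. Those 3 Tconv levels ran in the order of the libraries' depth (6.20, 19.7 and 74.4 M reads in peaks), so that for this group depth and cell state cannot be told apart.

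**Figure D2:**
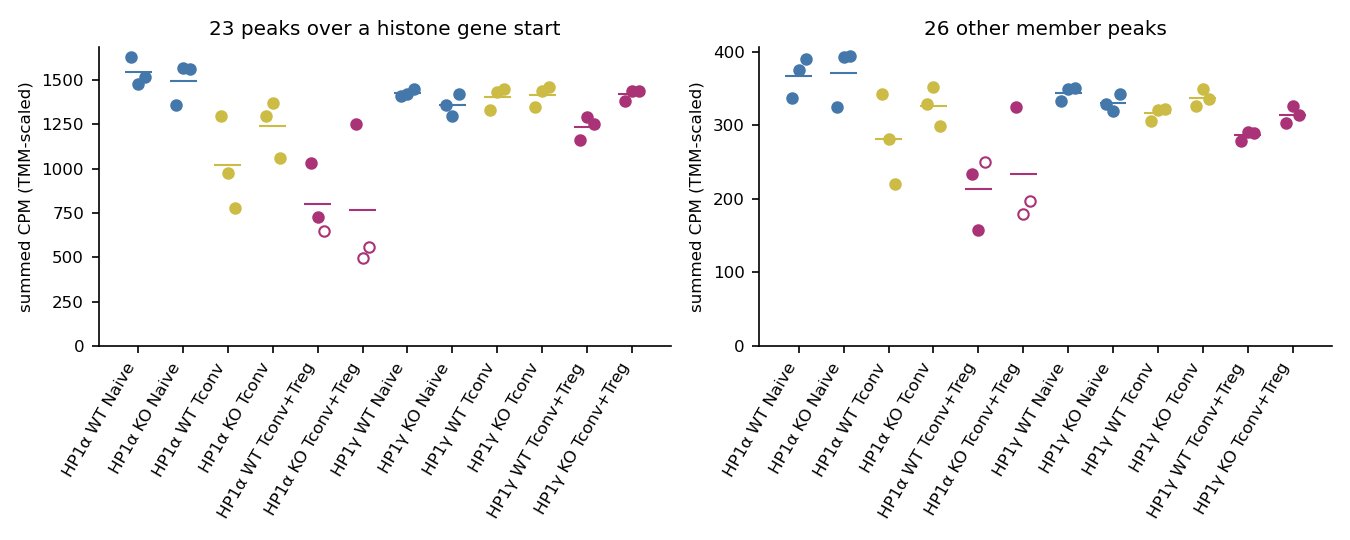
Summed CPM (TMM-scaled) of the 23 peaks over a histone gene start (left) and of the 26 other members (right) in each of 36 libraries by group; points are libraries, open points the 3 left out by the study, lines the mean of the 3 libraries. The HP1γ groups lie between 1160 and 1460 CPM on the left, and the HP1α groups after transfer spread from 495 to 1370.

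Between naive cells and Tconv no histone TSS peak was called. A peak was called where the edgeR adjusted p was below 0.05 and the log2 fold change beyond 1 in either direction, the thresholds of the study. None of the 23 TSS peaks passed in any of the 16 comparisons or under any other setting tried, DESeq2 included. In the comparisons of Tconv with naive cells, 16, 8, 4 and 7 of them had an unadjusted p below 0.05. The order is HP1α WT, HP1α KO, HP1γ WT and HP1γ KO. Of all peaks (71509 tested in the HP1α line, 71508 in the HP1γ line), 46514, 46489, 50241 and 46762 did. Among all coding TSS peaks 16.1, 15.7, 18 and 16.2% were called in the same comparisons. The largest change of a histone TSS peak in them was 0.78 on the log2 scale.

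Smaller differences at the starts were counted next. By adjusted p alone (below 0.05), 14 of 23 TSS peaks were lower in HP1α WT Tconv than in naive cells and none higher, where 39.6% of all coding TSS peaks were lower and 13.1% higher. The median over the 23 was -0.46 against -0.27 over all coding TSS peaks. In the HP1α KO 6 were lower and none higher (27.5 and 14.2% of all), with medians of -0.26 and -0.17. In the HP1γ line the medians were 0.04 in both genotypes (0.08 and 0.03 over all), with 3 higher and 1 lower in WT (32.5 and 20.2% of all) and 6 higher and 1 lower in KO (26.4 and 22.8% of all). The direction of the HP1γ WT median depended on the scaling, with -0.04 and 3 higher and 3 lower under library size alone, and -0.04 and 3 higher and 4 lower under loess offsets on abundance. The HP1α count was not stable: it ran from 3 to 18 over the other settings in WT and from 0 to 8 in KO, where leaving out any 1 of the 6 libraries left none. The median was -0.23 in WT and -0.11 in KO under library size alone, -0.19 and -0.08 under loess offsets on abundance, -0.21 and -0.15 with depth as a covariate, and -0.74 in WT without Tconv replicate 1.

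Linker histone H1f2 was the only TSS peak with an adjusted p below 0.05 in the same direction in all 4 of these comparisons, a choice made after its values were seen. In HP1γ WT it had 7.12, 7.06 and 7.11 log2 CPM in naive cells and 6.74, 6.82 and 6.86 in Tconv. In HP1γ KO it had 7.16, 7.04 and 7.16 in naive cells and 6.79, 6.76 and 6.85 in Tconv. In both genotypes each Tconv library lay below each naive library. The edgeR log2 fold changes were -0.23 (SE 0.08, adjusted p = 0.0188) and -0.28 (SE 0.08, adjusted p = 0.00771). In the HP1α line the levels were 7.35, 7.09 and 7.06 in WT naive cells and 6.64, 6.30 and 6.05 in WT Tconv, and 6.99, 7.13 and 7.08 in KO naive cells and 6.69, 6.77 and 6.43 in KO Tconv. Here too the groups did not overlap, with log2 fold changes of -0.72 (SE 0.14, adjusted p = 0.000366 by edgeR) and -0.38 (SE 0.14, adjusted p = 0.0241), and the deepest Tconv library had the highest level in WT. In the KO of the HP1α line 6 of 16 other settings kept the adjusted p below 0.05, against 16 of 16 in its WT, 12 of 15 in HP1γ WT and 15 of 15 in HP1γ KO.

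At the starts of core histone genes, 3 peaks rose in both genotypes of the HP1γ line. The peak over H2ac7, H2bc7 and H3c4, whose shared H2A-H2B start region is printed above, had 5.60, 5.63 and 5.59 log2 CPM in WT naive cells and 6.02, 6.18 and 6.17 in WT Tconv. In the KO it had 5.48, 5.44 and 5.62 in naive cells and 5.96, 6.16 and 6.17 in Tconv. The groups did not overlap, and the edgeR log2 fold changes were 0.58 (SE 0.08, adjusted p = 3.76e-06) in WT and 0.62 (SE 0.09, adjusted p = 5.92e-06) in KO. H2ac4/H3c2, the least open start, went from 4.18, 4.22 and 4.22 in WT naive cells to 4.66, 4.88 and 4.89 in WT Tconv, and from 4.0, 4.0 and 4.27 to 4.61, 4.88 and 5.03 in the KO. Its log2 fold changes were 0.66 (SE 0.12) and 0.77 (SE 0.13), with edgeR adjusted p of 4.88e-05 and 3.68e-05. H2ac12/H2bc12 rose by 0.35 in WT (SE 0.11, edgeR adjusted p = 0.00766) and 0.46 in KO (SE 0.12, adjusted p = 0.00214).

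These 3 peaks that rose in both HP1γ genotypes are also the 3 TSS members with the largest share of repeated sequence (22.0% at H2ac7/H2bc7/H3c4, 20.5% at H2ac4/H3c2 and 31.9% at H2ac12/H2bc12), and the part of this in the result was not tested. In the HP1α line the same 3 gave -0.13, 0.14 and -0.47 in WT and 0.12, 0.31 and -0.26 in KO, and only the fall of H2ac12/H2bc12 in WT passed (edgeR adjusted p = 0.0327). Differences between the lines were not tested, since each line has its own WT and its own experiments. In the HP1γ KO, 3 more TSS peaks rose against naive cells: H2bc27 by 0.78, H2ac11/H2bc11/H4c9 by 0.34 and H2ac10/H3c8 by 0.30.

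In the HP1α WT the lower TSS peaks included H2A, H2B, H3 and H4 starts alike. H2ac8/H2bc8, the other pair printed above, had 6.01, 5.97 and 5.97 log2 CPM in naive cells and 5.62, 5.07 and 4.64 in Tconv. The difference was -0.64 (SE 0.17, edgeR adjusted p = 0.0035), and the lowest value was that of the shallowest library. H4c3, also printed above, went from 6.06 in each of the 3 naive libraries to 5.72, 5.21 and 4.94 (-0.58, SE 0.16, edgeR adjusted p = 0.00526). In HP1γ WT the same start had 5.88, 5.89 and 6.00 in naive cells and 5.69, 5.88 and 5.82 in Tconv, groups that met at 5.88, and it did not pass (-0.06, edgeR adjusted p = 0.443). Per family, the median log2 fold change over the peaks that hold a start of that family was -0.52 for H1, -0.38 for H2A, -0.46 for H2B, -0.35 for H3 and -0.46 for H4 in HP1α WT, and -0.08, 0.11, 0.05, 0.05 and 0.02 in HP1γ WT.

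The changes past the thresholds were all at members away from a start. Against naive cells, 7 of 49 members were called in HP1α WT Tconv (5 higher, 2 lower), 6 in HP1α KO (4 and 2), 5 in HP1γ WT (3 and 2) and 5 in HP1γ KO (3 and 2). Of all peaks, 42.5, 42.6, 46.5 and 43% were called in these comparisons. The shares called higher were 24.9, 23.5, 24.5 and 22.4%, and the shares called lower 17.5, 19, 22 and 20.6%, so that no count of the members exceeded the share of all peaks. These 4 comparisons use different libraries, but the Tconv libraries serve in other comparisons as well.

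Upstream of H1f2 lay the members with the largest falls. The peak 9406 bp upstream (chr13:23913161-23913610) had 2.17, 2.30 and 2.07 log2 CPM in HP1γ WT naive cells and -0.68, -1.06 and -1.31 in Tconv. In HP1α WT it had 1.74, 2.14 and 2.24 in naive cells and -0.66, 0.23 and -0.41 in Tconv. Naive and Tconv libraries did not overlap in either line. The edgeR log2 fold changes were -2.49 (SE 0.31) in HP1α WT, -2.58 (SE 0.28) in HP1α KO, -3.19 (SE 0.26) in HP1γ WT and -2.68 (SE 0.30) in HP1γ KO, with adjusted p of 1.34e-06, 1.51e-07, 3.4e-09 and 3.34e-07.

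The peak 4221 bp upstream of H1f2 (chr13:23918361-23918780), with CTTTGAT at 2 places, had 1.65, 1.87 and 1.37 log2 CPM in HP1γ WT naive cells and -1.70, -2.41 and -0.99 in Tconv. Its log2 fold changes by edgeR were -3.35 (SE 0.34, adjusted p = 4.69e-08) in HP1γ WT, -2.38 (SE 0.36, adjusted p = 1.28e-05) in HP1γ KO, -2.10 (SE 0.34, adjusted p = 3.01e-05) in HP1α WT and -2.30 (SE 0.28, adjusted p = 5.82e-07) in HP1α KO. Both peaks were called under every other setting tried in these comparisons. Between them lay another member, 6076 bp upstream of H1f2, which was called in none of the 16 comparisons. The H1f2 start fell with its upstream peaks but by far less. In the same block, the peak 2727 bp upstream of H4c3 fell in all 4 comparisons without reaching the fold threshold (-0.63, -0.61, -0.74 and -0.56, edgeR adjusted p from 0.000111 to 0.00408).

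At the edge of the interval with no peak a member rose. The peak 18859 bp downstream of H2bc24 (chr13:22036484-22037090), the first after that interval and free of repeated stretches, had -0.62, -0.99 and -1.59 log2 CPM in HP1α WT naive cells and 0.85, 0.96 and 0.81 in Tconv. In HP1γ WT it had -0.44, -0.47 and -1.09 in naive cells and 0.43, 1.07 and 0.93 in Tconv. All Tconv libraries were above all naive ones in both lines. The edgeR log2 fold changes were 2.11 (SE 0.47, adjusted p = 0.000841), 2.29 (SE 0.40, adjusted p = 7.15e-05), 1.60 (SE 0.50, adjusted p = 0.00834) and 2.08 (SE 0.49, adjusted p = 0.00117) in HP1α WT and KO and HP1γ WT and KO.

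Other members were called higher in some of these comparisons. Inside H1f8, an oocyte linker histone gene on chromosome 6, the peak 1105 bp downstream of the start (chr6:115922665-115923373, intron) had 4 to 21 reads per library in naive cells and rose by 2.24, 2.96, 2.53 and 2.04 in HP1α WT and KO and HP1γ WT and KO. The H1f8 calls were kept in 15 of 16, 16 of 16, 15 of 15 and 14 of 15 other settings. The lowest change in HP1α WT was 0.96. The peak 3699 bp upstream of H1f6, a testis linker histone gene, had 0 to 10 reads in naive libraries and was called in HP1α WT (2.71), HP1α KO (2.62) and HP1γ WT (2.52), calls that were lost under loess offsets on abundance, with 0.55, 0.76 and 0.77. The peak 989 bp downstream of the H1f10 start was called in the HP1α line (1.31 in WT and 1.43 in KO, kept in 9 and 15 of 16 other settings, with adjusted p up to 0.208 in WT), and the one 4985 bp downstream of H2ac12 in HP1γ KO (1.44). The peak 11762 bp downstream of H4c4, in an intron of H2bc6, rose with adjusted p below 0.05 in all 4 comparisons (1.0, 0.79, 0.68 and 0.73) and just passed the fold threshold in HP1α WT. That call was kept in 10 of 16 other settings. The H4c4 peak had 68 to 187 reads per naive library, against 12 to 63 at the H2bc24 peak. The fold changes of the H1f8 peak carry standard errors up to 0.81.

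**Figure D3:**
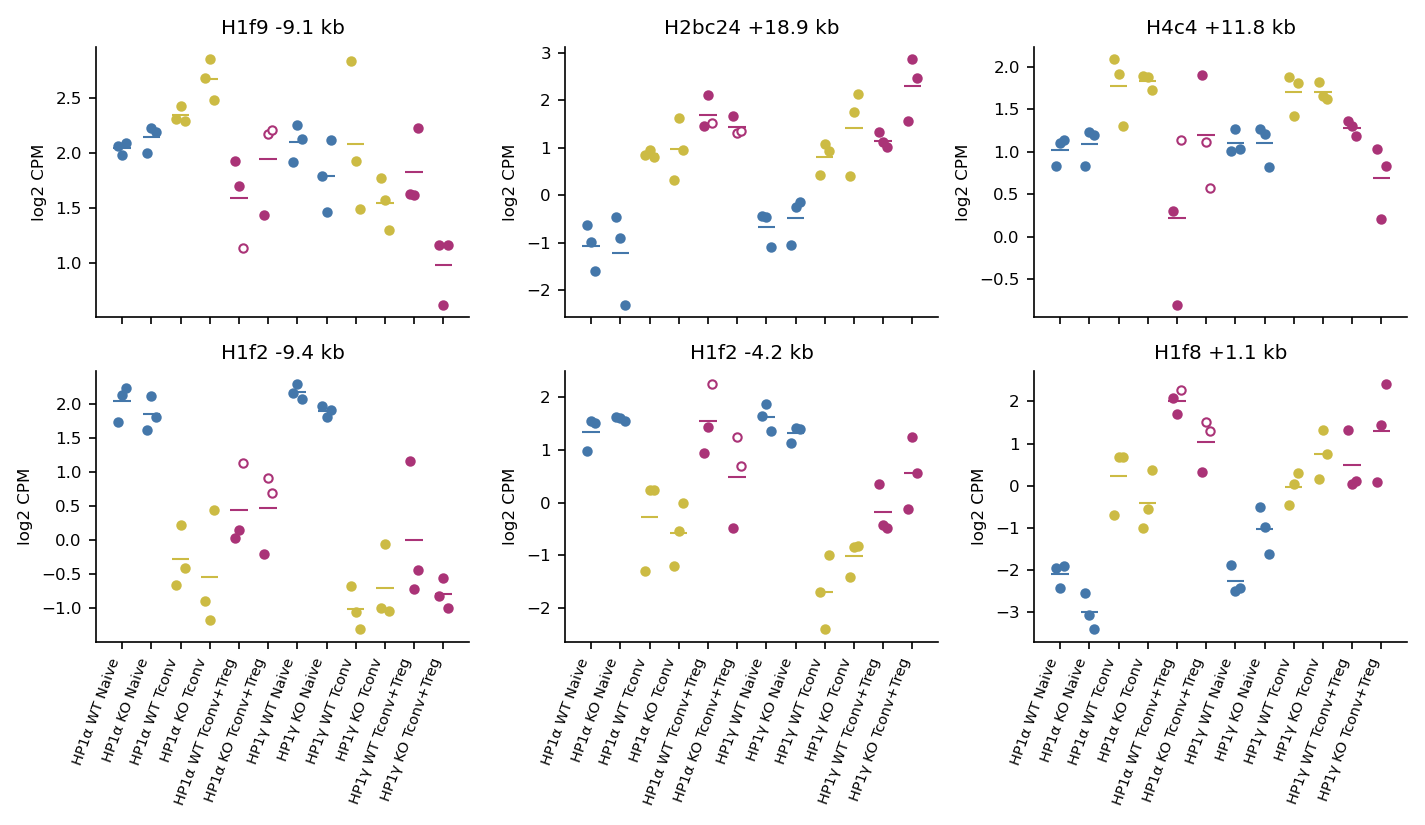
Log2 CPM of 6 members away from a histone gene start in the 36 libraries by group, named by distance in kb from the nearest histone gene; points are libraries, open points those left out by the study, lines the mean of 3 libraries. Both peaks upstream of H1f2 are higher in each naive group than in each Tconv group without Treg, and the H2bc24 and H1f8 peaks are lower in each line's naive groups than in its Tconv groups.

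Loss of HP1α moved no member past the thresholds. Of all peaks, 0.00559% were called between KO and WT naive cells, 0.021% in Tconv and 1.63% in Tconv with Treg, and 0 of the 49 members in each. DESeq2 called 0, 0 and 3. At an unadjusted p below 0.05 were 0 members in naive cells and 2 in Tconv, against 835 and 3450 of all 71509 peaks. In naive cells the TSS members had a median log2 fold change of -0.03 (-0.13 to 0.13). In Tconv all 23 were above 0 (median 0.19, from 0.05 to 0.29, against a median of 0.09 over all coding TSS peaks, of which 76.6% were above 0), but none had an unadjusted p below 0.05. The median was 0.48 without WT replicate 1, 0.09 without WT replicate 3, 0.13 without KO replicate 2, 0.29 without KO replicate 3, and 0.06 with depth as a covariate.

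In HP1α Tconv with Treg the answer hung on the libraries kept. The TSS members had a median of 0.43 with the 1 KO and 2 WT libraries kept, and 0.08 with all 6, when 15 rather than 22 of the 23 were above 0. Without WT replicate 1 the median was 0.95, and with depth as a covariate 11 of the 23 were above 0. For H1f2 the WT libraries kept had 6.47 and 5.96 log2 CPM and the KO library 6.65, while the libraries left out had 5.63 in WT and 5.30 and 5.51 in KO. The member with the smallest p among those lower in the KO, the H1f8 peak, gave -1.76 (SE 0.54, edgeR adjusted p = 0.0981) with the libraries kept and -1.36 (SE 0.42, adjusted p = 0.15) with all 6. The member with the smallest p among those higher, 12590 bp upstream of H4c8, gave 1.04 (SE 0.31, edgeR adjusted p = 0.101) with the libraries kept and 0.45 (SE 0.34, adjusted p = 0.676) with all 6.

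Loss of HP1γ left the histone starts near their WT level in naive cells and in Tconv. Of all peaks, 0.14% were called in naive cells and 3.35% in Tconv, and no member in either, with 0 called by DESeq2 in each. At an unadjusted p below 0.05 were 4 and 6 members, against 6421 and 14031 of all 71508 peaks tested. The TSS members had medians of -0.03 and 0.02. H2bc27, an H2B gene on chromosome 11 close to H2bc26 and H2ac25, was the lowest in naive KO cells: its peak had 5.33, 5.69 and 5.49 log2 CPM in WT and 5.05, 5.09 and 4.69 in KO. The libraries did not overlap, and the difference was -0.57 (SE 0.13, edgeR adjusted p = 0.0802), short of the threshold. Under library size alone, loess offsets on abundance, DESeq2 and a fit of these groups alone, 1 TSS peak was lower by adjusted p. In Tconv the same peak had 5.48, 5.67 and 5.71 in WT and 5.66, 5.58 and 5.70 in KO, a difference of 0.04.

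Near the interval with no peak the HP1γ KO was higher. The peak 21625 bp downstream of H2bc24 had -0.19, 0.04 and -0.06 log2 CPM in WT Tconv and 0.63, 0.70 and 1.09 in KO Tconv. The difference of 0.97 (SE 0.20, edgeR adjusted p = 0.00822) lay just under the fold threshold, and 5 of 15 other settings called it. In naive cells the same peak differed by 0.62 (SE 0.18, edgeR adjusted p = 0.231). The peak 18859 bp downstream, which rose after transfer, had 1.11, 1.01 and 1.33 in WT Tconv with Treg and 2.47, 1.56 and 2.86 in KO, without overlap. This was the only member called between HP1γ KO and WT with Treg, where 11.9% of all peaks were called (1.24, SE 0.36, edgeR adjusted p = 0.0213), and 10 of 15 other settings called it.

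With Treg, many histone starts were slightly more open in the HP1γ KO than in WT. By adjusted p alone, 10 of 23 TSS peaks were higher and none lower, where 12.2% of all coding TSS peaks were higher. The 10 differences ran from 0.21 to 0.32 on the log2 scale. They were the H1 start H1f2 (0.28), the H4 starts H4c8 (0.23) and H4c3 (0.23), and 7 peaks over H2A, H2B or H3 starts, among them H2ac8/H2bc8 (0.32), H2ac7/H2bc7/H3c4 (0.30) and H2bc3/H3c3 (0.32). Over the 23, 21 were above 0 with a median of 0.21, against a median of 0.13 over all coding TSS peaks, of which 75.5% were above 0. In the same comparison the peak at the myeloid gene Itgam was called lower (-1.32, edgeR adjusted p = 0.00906), and the starts of Pax5 (0.66) and Eomes (0.86) were higher by adjusted p, and the part of other cells in the result was not tested.

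For H2ac7/H2bc7/H3c4 the libraries had 5.95, 5.93 and 5.79 log2 CPM in WT and 6.25, 6.06 and 6.24 in KO. For H1f2 they had 6.71, 6.63 and 6.31 in WT and 6.94, 6.77 and 6.81 in KO. The genotypes did not overlap at either peak, although the gap was small beside the spread, and the lowest WT value of each was that of replicate 3, with 19.4 M reads the shallowest of the 6 libraries. The count of 10 depended on the scaling: scaling by library size alone left 1 (median 0.11), loess offsets on mean abundance 0 (0.10) and loess offsets on GC content 15 (0.36), and leaving out 1 of the 6 libraries left 0 to 8. Without KO replicate 1 it was 0, without KO replicate 3 or WT replicate 2 or 3 it was 1, and without KO replicate 2 it was 5. With the replicate number as a block, which the check of these libraries allows, it was 8, and in a fit of these 2 groups alone it was 0.

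Addition of Treg, within a genotype, moved 4 members past the thresholds in the 4 comparisons, each in 1 of them and none at a start. In HP1α WT, where 6.77% of all peaks were called, the H1f8 peak rose by 2.22 (SE 0.52, edgeR adjusted p = 0.0117), from -0.69, 0.68 and 0.68 log2 CPM to 2.09 and 1.70 in the 2 libraries kept. The peak 11762 bp downstream of H4c4 fell by 1.80 on the log2 scale (SE 0.50, edgeR adjusted p = 0.0321), from 2.09, 1.92 and 1.30 to 0.31 and -0.80, the last of these from 1 read in a library of 1.49 M reads. With the library left out put back, which had 2.26 and 1.14 at these peaks, the differences were 2.27 (adjusted p = 0.00214) and -1.53 (adjusted p = 0.0358) by edgeR, and 3 members were called rather than 2. Of 15 other settings 10 called the H1f8 peak (1.35 to 2.62) and 9 the H4c4 peak (-2.92 to -1.48). Both calls were lost without Tconv replicate 1 (1.35 and -1.63) and without with-Treg replicate 1 (1.83 and -2.92), and the H4c4 call also without with-Treg replicate 2. The libraries kept with Treg held 12.7 and 1.49 M reads in peaks, against 74.4, 19.7 and 6.20 M in Tconv. With depth as a covariate neither peak was called, so that depth and Treg cannot be told apart at these peaks.

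In HP1α KO, where 0.548% of all peaks were called, the peak 9059 bp upstream of H1f9 on chromosome 11 fell by 1.26 (SE 0.23, edgeR adjusted p = 0.0183), from 2.68, 2.85 and 2.48 to 1.44 in the 1 library kept. The libraries left out had 2.17 and 2.21, and with them the difference was -1.02 (SE 0.20, edgeR adjusted p = 0.0113). In HP1γ KO, where 8.15% were called, the peak 4221 bp upstream of H1f2 rose by 1.64 (SE 0.40, edgeR adjusted p = 0.00978), from -1.41, -0.84 and -0.82 to 0.57, -0.12 and 1.24. This peak had been higher still in naive cells of that genotype (1.13, 1.42 and 1.40). In HP1γ WT, where 0.137% were called, it went from -1.70, -2.41 and -0.99 to -0.42, -0.49 and 0.36, a difference of 1.47 (SE 0.53) that did not pass (edgeR adjusted p = 0.157). No member was called there by edgeR and 1 by DESeq2. At an unadjusted p below 0.05 were 16 members, against 14522 of all 71508 peaks tested.

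The peak 11762 bp downstream of H4c4 also fell with Treg in HP1γ KO, from 1.82, 1.66 and 1.62 to 0.84, 1.03 and 0.21 log2 CPM. The groups did not overlap, and the difference of -0.94 (SE 0.21, edgeR adjusted p = 0.0064) stayed short of the fold threshold. In HP1γ WT Tconv it had 1.88, 1.42 and 1.81 and with Treg 1.31, 1.19 and 1.36, again without overlap. At the starts, all 23 TSS members were below 0 in HP1γ WT with Treg (-0.09 to -0.29, median -0.18), where the median over all coding TSS peaks was -0.13 and 24.2% of them were above 0. This depended on the scaling: 4 were above 0 under library size alone (median -0.05) and 8 under loess offsets on abundance (-0.01), while DESeq2 put 3 lower by adjusted p. None passed in edgeR, and 11 of the 23 had an unadjusted p below 0.05, against 14522 of all 71508 peaks tested. In HP1γ KO their median was 0.01. In the HP1α line the TSS median with Treg was -0.20 in WT and 0.01 in KO with the libraries kept, and -0.32 and -0.49, with 0 of 23 above 0 in each, with all libraries. Leaving out 1 library moved the WT median from -0.71 without with-Treg replicate 1 to 0.03 without Tconv replicate 1.

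Whether the Treg effect differed between genotypes was tested by the interaction of genotype and Treg, which called 0.0461% of all peaks in the HP1α line and 0.0014% in the HP1γ line, and no member in either. At an unadjusted p below 0.05 there were 3 members in the HP1γ line, against 9150 of all 71508 peaks tested. DESeq2 called 0 members in each line. Putting back the libraries left out brought the HP1α interaction to 0 called peaks, and the median of the TSS members from 0.20 to -0.17. The smallest p in the HP1γ line among members with a positive term belonged to H2ac7/H2bc7/H3c4 (0.32, SE 0.12, edgeR adjusted p = 0.333). A difference in the Treg effect at the histone starts was therefore not shown, although the KO and WT differ with Treg at 10 of them by adjusted p.

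**Figure D4:**
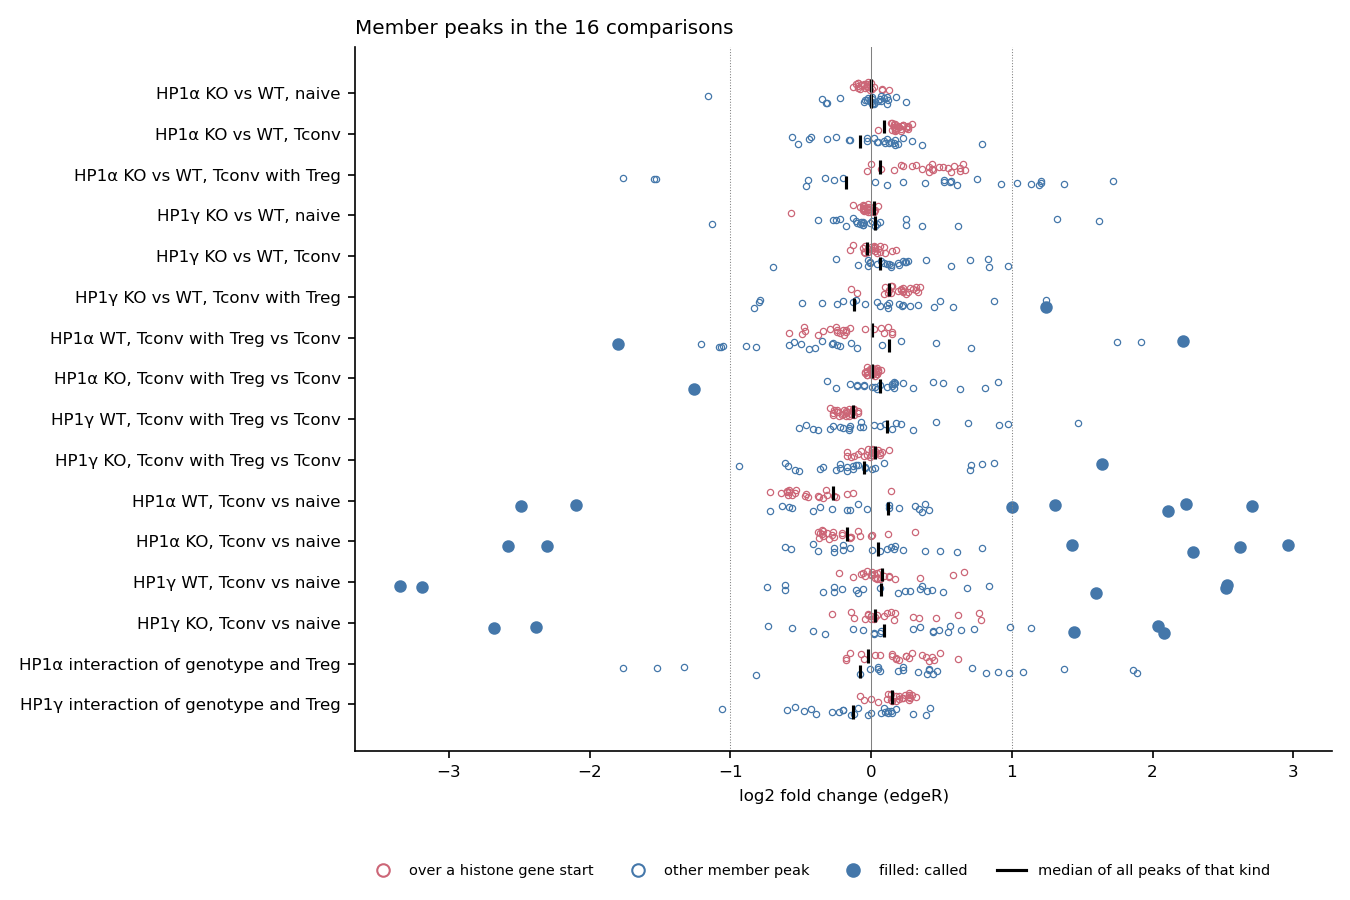
Log2 fold change (edgeR) of the 49 members in the 16 comparisons, with peaks over a histone gene start above the line of each comparison and the other members below it; filled points are called, black bars the median of all peaks of that kind, dotted lines the fold threshold. No peak over a start is filled, and the points past the threshold in the comparisons with naive cells run from -3.35 to 2.96.

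The histone genes outside chromosome 13 are given one by one. H4c16 on chromosome 6, an H4 gene that stands alone, fell in HP1α WT Tconv (-0.53, edgeR adjusted p = 0.00636) and KO Tconv (-0.35, adjusted p = 0.0397), and gave -0.03 and -0.14 in HP1γ WT and KO. The peak 10583 bp downstream of it fell in HP1γ WT and KO Tconv (-0.61 and -0.73, edgeR adjusted p = 0.00762 and 0.00887) and in HP1α KO Tconv (-0.41, adjusted p = 0.0166) and was lower in the HP1γ KO than in WT with Treg (-0.79, adjusted p = 0.0462), with 1.43, 1.73 and 2.33 log2 CPM against 2.60, 2.45 and 2.87. This last difference kept its adjusted p below 0.05 in 6 of 15 other settings, and in the HP1α KO Tconv the fall at H4c16 kept it in 4 of 16 and that of the peak downstream in 7 of 16. H2bc27 rose after transfer in HP1γ KO, from its low naive level of 5.05, 5.09 and 4.69 to 5.66, 5.58 and 5.70. The peak 9059 bp upstream of H1f9 rose in HP1α KO Tconv (0.61, edgeR adjusted p = 0.00085). The peak 16401 bp upstream of H1f10 had an adjusted p below 0.05 only in HP1γ KO Tconv against naive cells (0.56, SE 0.20, edgeR adjusted p = 0.0229).

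**Figure D5:**
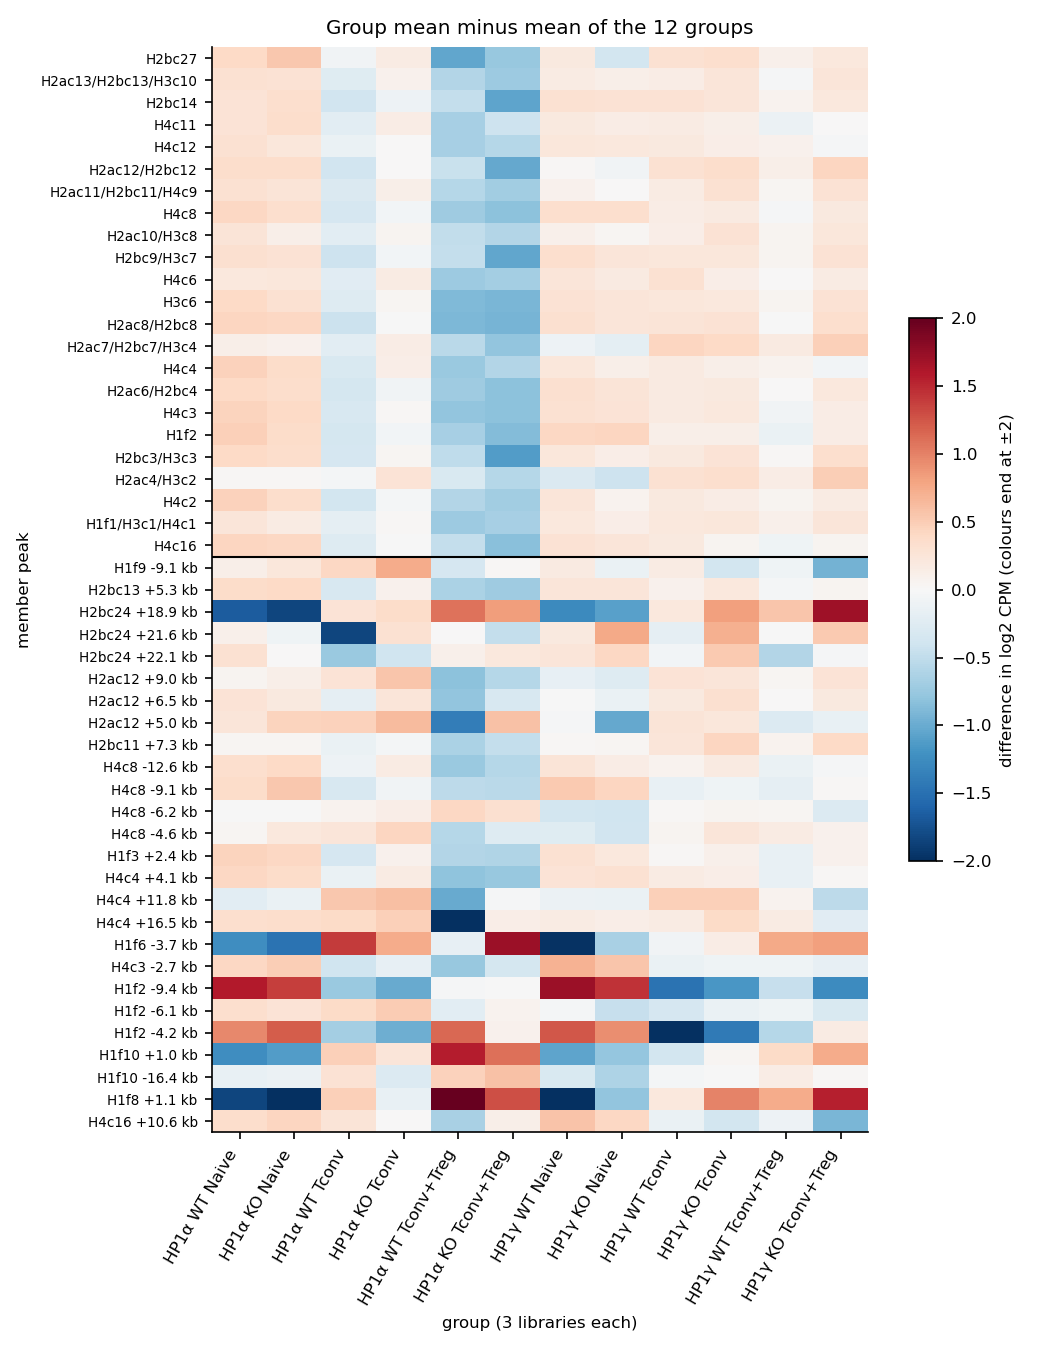
Each row is a member peak and each column a group, coloured by the group mean minus the mean of the 12 groups in log2 CPM (3 libraries each, all libraries included, colours end at 2 in either direction); the line divides the 23 peaks over a start from the 26 others. The upper part is pale except in the HP1α groups with Treg, and the strongest colours in the lower part are those of the peaks near H1f2, H2bc24, H1f6 and H1f8.

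The starts of genes that run histone supply were also followed. Of 23 listed factors of histone gene expression, 21 had a TSS peak, and of their 22 peaks none was called in the comparisons with naive cells, while 7 were lower by adjusted p in HP1α WT, 3 lower in HP1α KO, 9 higher and 2 lower in HP1γ WT and 6 higher and 2 lower in HP1γ KO (shares of all coding TSS peaks as above). The Slbp start, for the stem-loop binding protein, rose by 0.48 in HP1γ WT Tconv (SE 0.08, edgeR adjusted p = 4.45e-05) and by 0.26 in KO Tconv (SE 0.09, adjusted p = 0.0148), and gave -0.31 and -0.10 in HP1α WT and KO, neither past the test. The start shared by Npat and Atm fell in HP1α WT Tconv (-0.39, SE 0.14, edgeR adjusted p = 0.0212) and gave 0.01 and -0.10 in the HP1γ line. Among 34 peaks over the starts of 29 S phase genes, 3 were called higher in HP1α WT, HP1γ WT and HP1γ KO and 2 in HP1α KO, with 1 called lower in each line's KO and in HP1γ WT. By adjusted p alone 4 were higher and 13 lower in HP1α WT (median -0.30), 5 and 9 in HP1α KO (-0.16), 12 and 1 in HP1γ WT (0.11) and 9 and 2 in HP1γ KO (0.09). Rpa2, a subunit of the single-strand DNA binding protein RPA, rose in all 4 (1.71, 1.18, 1.68 and 1.57). A peak over a start of Gins2, of the replicative helicase (chr8:121312791-121313090), was the 1 called lower (-1.57 in HP1α KO, -2.48 and -2.26 in HP1γ WT and KO). A peak over a start of Macroh2a1, a replication-independent H2A variant gene (chr13:56290791-56291100), was called lower in HP1γ WT (-1.28, edgeR adjusted p = 0.000144).

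The 46 other peaks in the chromosome 13 span are given for comparison, since they lie between and within the blocks. Of these, 11, 12, 13 and 13 were called higher in Tconv than in naive cells and 1, 1, 1 and 0 lower, in HP1α WT, HP1α KO, HP1γ WT and HP1γ KO, where of all peaks 24.9, 23.5, 24.5 and 22.4% were called higher, so that the higher counts lie near the share of all peaks. Peaks nearest to the vomeronasal receptor genes Vmn1r206, Vmn1r207, Vmn1r209 and Vmn1r223, which lie between the histone blocks, rose by 2.75 to 8.13 on the log2 scale where they were called, 7 of them in each HP1α comparison and 8 in each HP1γ comparison. Several of them were also higher in the HP1γ KO than in WT: 5 of the 46 were called higher in Tconv and 4 with Treg, with 1 lower in Tconv (near Pom121l2, -1.19) and none with Treg, where 3.35 and 11.9% of all peaks were called in either direction. That at Vmn1r209 (chr13:22978087-22978776) was higher by 1.78 in Tconv (SE 0.18, edgeR adjusted p = 4.28e-06) and 1.35 with Treg (SE 0.21, adjusted p = 0.000184). The difference between these neighbours and the histone members was not tested.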

How the data were processed

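ATAC-seq was done on 36 libraries (12 groups of 3). Per the labels and the study's methods, the authors trimmed reads (Trim Galore 0.6.7), aligned them to GRCm39 with BWA, kept pairs of high mapping quality outside blacklisted regions, removed duplicates, called peaks per sample, merged them with bedtools and deposited raw read counts per merged peak (featureCounts 2.0.3). Of 71512 intervals, 3 of no width were dropped. Each peak was assigned to the nearest protein-coding TSS (GENCODE vM39) by its midpoint. The members and lists were chosen with earlier results of these data known. edgeR 4.0.16 (R 4.3.3; filterByExpr, TMM, quasi-likelihood test, two-sided, Benjamini-Hochberg over all peaks) was fitted per line, to 15 HP1α libraries (3 left out, as in the study) and 18 HP1γ libraries, all 6 groups of a line in 1 fit, and checked on simulated data. Levels are log2 CPM over 36 libraries with a prior count of 2. In count data of this kind, depth limits the members of few reads. The named members follow a rule: every member of a chromosome with at most 5, the 3 highest and 3 lowest TSS peaks of chromosome 13, and per comparison up to 3 called in each direction or else the smallest p, with Npat, Slbp, Cbx5 and Cbx3; others named were chosen after their values were seen. Alternatives were another scaling (library size, loess on abundance or GC content), DESeq2 1.42.0, no filter, a replicate block, only the groups compared, a depth covariate, all HP1α libraries, each library left out, and other member rules. The reported fits have no replicate block. The replicate numbers were taken to pair the samples where deviations from the group mean correlated above 0.1 in each of 3 pairs. That held for HP1α KO vs WT naive (0.503, 0.25 and 0.274), HP1γ KO vs WT with Treg (0.288, 0.148 and 0.324) and HP1γ WT with Treg vs Tconv (0.284, 0.203 and 0.226). Versions: limma 3.58.1, Python 3.11.15, pandas 2.3.3, pysam 0.24.0, matplotlib 3.10.9.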

Additional observations from a re-analysis of the deposited data

How the results depend on the processing

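Of 682 recomputed values of named members, 643 kept their direction and side of the threshold, 30 lost and 9 gained the threshold, and none reversed. Counts of called members that moved by over 1.5 times, with the ranges on leaving out 1 library, were as follows, each beside its value as reported. For HP1α KO vs WT with Treg (0), DESeq2 gave 3. For HP1γ KO vs WT Tconv (0), library size alone and the depth covariate gave 1 each, and leaving out 1 library 0 to 2. For HP1γ KO vs WT with Treg (1), both loess offsets gave 3, the depth covariate 2, only the groups compared 0, and leaving out 1 library 0 to 3: 3 without KO replicate 2, 2 without WT replicate 3, and 0 without KO replicate 1, WT replicate 1 or WT replicate 2. For HP1α WT with Treg vs Tconv (2), GC offsets, only the groups compared and the quasi-likelihood method of edgeR 3, an alternative chosen after seeing the data, gave 1 each, the depth covariate 0, and leaving out 1 library 0 to 3: 0 without Tconv replicate 1 or with-Treg replicate 1, 1 without with-Treg replicate 2. For HP1α KO with Treg vs Tconv (1), only the groups compared and the edgeR 3 method gave 0, and leaving out 1 library 1. For HP1γ WT with Treg vs Tconv (0), DESeq2 gave 1. For HP1γ KO with Treg vs Tconv (1), only the groups compared gave 0, and leaving out 1 library 1 to 4: 4 without with-Treg replicate 2, 2 without Tconv replicate 3. For Tconv vs naive, loess on abundance gave 4 in HP1α WT (7), and leaving out 1 library 5 to 6 there, 6 in HP1α KO (6), 4 to 5 in HP1γ WT (5) and 4 to 6 in HP1γ KO (5). Taking the nearest TSS over genes of all types gave 3, 3, 3 and 2 in these 4, and 0, 1 and 0 for HP1γ KO vs WT with Treg and for Treg vs Tconv in HP1α WT and KO, since fewer peaks are then members. Keeping only members over a TSS gave 0 in every comparison with a call, by construction. For the other changes the cause was not tested.

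The replicate block, in paired and unpaired comparisons alike, changed the count of called members in HP1α WT with Treg vs Tconv, from 2 to 3, and in no other comparison. Depth limits the members with the fewest reads, such as those near H1f6 and H1f8 with 0 to 21 reads per naive library, and the with-Treg groups of the HP1α line, where leaving out libraries leaves 1 in the KO and 2 in the WT.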
